A study of Rattus norvegicus with 16 samples.

Results

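Kidneys of rats given finerenone were compared by bulk RNA-Seq with kidneys of rats given spironolactone, both in the DOCA-salt model of hypertension. The comparison was defined by its libraries, 4 from finerenone and 3 from spironolactone rats, which are 7 of the 16 libraries of the series. It was repeated with spironolactone library 4, which the study had set aside, and without spironolactone library 2. Of 32623 genes in the table, 14115 had a count above 4 in at least 3 of these 7 libraries and were tested.

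All rats were Sprague-Dawley, and the RNA was polyadenylated RNA of whole kidney tissue. The labels give an age of 6 weeks, a figure that the methods of the study give as the length of treatment. By those methods, rats of both drug groups and of the DOCA group lost the left kidney. They then received weekly deoxycorticosterone acetate (DOCA) by injection and salt in the drinking water. Daily gavage carried finerenone, spironolactone or, in the DOCA group, vehicle. Control rats were sham operated and received oil injections and tap water. The dose of spironolactone by body weight was higher than that of finerenone, so the drugs were compared at unequal doses. The labels do not say that each library came from a separate rat, so p-values measure the spread between these libraries, which may be technical. Every library also carries a code of 2 numbers. The first numbers were 2 and 3 for finerenone and 4 and 6 for spironolactone libraries, so a difference between first numbers and a difference between drugs cannot be told apart.

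The mineralocorticoid receptor is a nuclear hormone receptor that aldosterone and DOCA activate. In the aldosterone-sensitive distal nephron it raises sodium reabsorption through the epithelial sodium channel. Sustained activation with salt leads to hypertension, inflammation, tubular injury and scarring of the kidney. Spironolactone is a steroidal antagonist of the receptor that also binds receptors of sex hormones, whereas finerenone is a nonsteroidal antagonist with a bulky side chain.

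The 7 libraries held between 7068949 and 8056935 counts. The mean total was 7577392 ± 412935 (SD, n = 4) in the finerenone and 7723492 ± 282552 (SD, n = 3) in the spironolactone libraries, and spironolactone library 4 held 10932887. The 20 most abundant genes took between 21.9% and 27.2% of counts in finerenone libraries and between 17.7% and 20% in spironolactone libraries 1 to 3. Of these 20 genes, 13 were called higher and 1 was called lower in finerenone. Levels below are given as CPM, counts scaled to a library total of 1000000, with normalization by the trimmed mean of M values (TMM) over all 16 libraries. Log2 fold changes are finerenone minus spironolactone, so a negative value is lower in finerenone.

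The files name genes by Ensembl ID only. A symbol could be given to 1999 IDs, each by an exact match of its TPM values to values that the study lists beside symbols. A table gave 1996 of the symbols. That table lists genes which the study found changed between DOCA and control rats, in libraries that take no part in the drug comparison. Figure values of the study for 14 libraries, drug libraries among them, gave 6 symbols, 3 of them also in that table. Of the 1999 genes with a symbol, 1881 (94.1%) had a higher mean level in DOCA than in control libraries. Genes that DOCA lowered mostly carry no symbol here, and neither does any of the 33 proximal tubule genes listed for this comparison. Among named genes, Timp1, Cp, C2 and Cxcl10 overlap Syn1, Hps3, Zbtb12 and Art3 in RefSeq, and reads in the shared bases may not be separate.

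Between the drugs, 1525 of 14115 genes (10.8%) passed the test, with 644 higher in finerenone (4.56%) and 881 lower (6.24%). The test was the edgeR quasi-likelihood F test, and calls needed both a Benjamini-Hochberg adjusted p under 0.05 and a log2 fold change of 0.5 or more in either direction. Genes with large differences were mostly lower in finerenone: 329 of the 428 called genes that differed by at least 1 on the log2 scale. Called genes differed by a median of 0.78 on the log2 scale, in either direction, against a median standard error (SE) of 0.17 over all genes tested. The 4 finerenone and 3 spironolactone libraries did not overlap in 4026 genes (28.5%), which included 1491 of the called genes. With spironolactone library 4 added, 1403 called genes still had no overlap. For genes named below for the largest or smallest fold changes, no overlap was itself a condition of naming. It adds no support to their calls. Of the 1999 genes with a symbol, 609 (30.5%) were lower and 15 were higher. The lists below hold only their members with a symbol, and are to be read against this 30.5% and against the median log2 fold change of the 1999 genes, -0.48. The medians for podocyte, TGF-beta, collecting duct, endothelin and antioxidant genes were within 0.1 of that value, and the median for interferon genes was above it. The 30.5% is from the fit of all 7 libraries, and this share was not counted in other fits. Over all 14115 genes tested, 453 were called lower without spironolactone library 2 and 1038 with library 4 added, in place of 881. List counts from those fits are to be read against these. Members named below beyond the few chosen by rule were picked after their values were seen. Of the 105 list members called, 62 were called in all 7 fits that left out 1 library, and none turned sign. Libraries of a group that share a first code number may not be independent. With such libraries summed, which leaves 2 sums against 2, 61 of the 105 were called, and with spironolactone library 4 in the sums 73 were. Genes named below that lost the call in these sums are given in each paragraph. The direction of these counts depends on the scaling. Scaling by library size alone, without TMM, moved the median over all genes tested from -0.04 to -0.26 on the log2 scale and gave 2383 calls with 10.7% of them higher, in place of 42.2%. On log2(TPM + 1) the median was -0.35 and 3.81% of calls were higher.

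**Figure D1:**
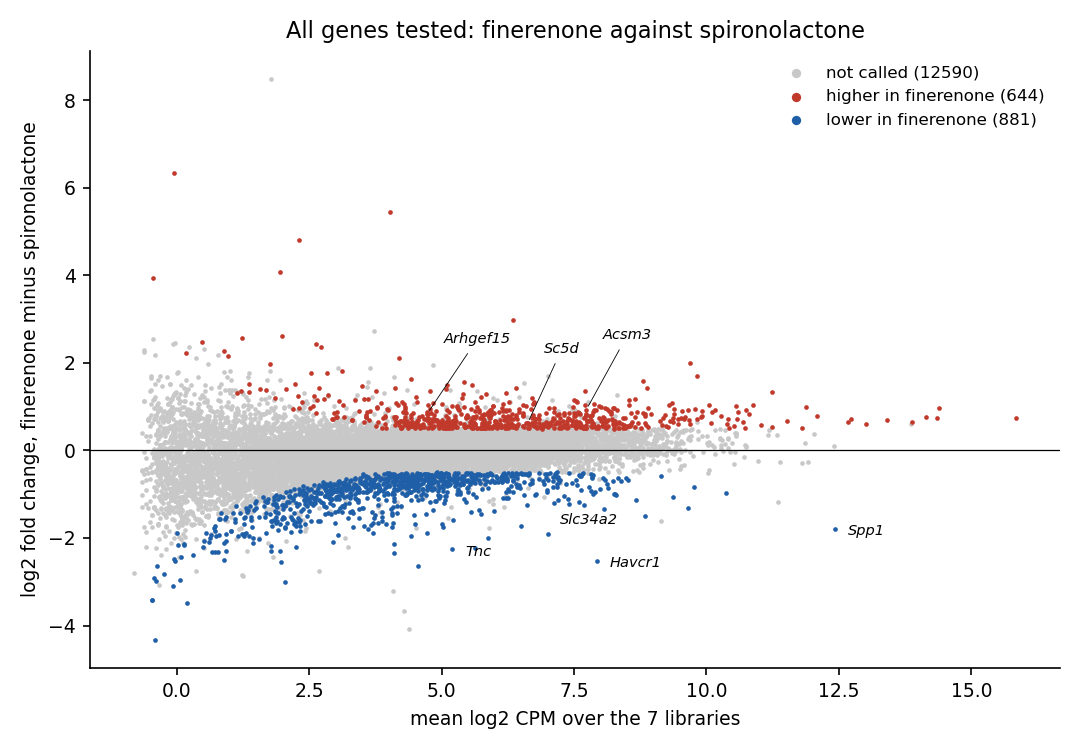
Each point is a gene tested, with the mean log2 CPM over the 7 libraries on the x axis and the log2 fold change, finerenone minus spironolactone, on the y axis. The 644 genes called higher are red and the 881 called lower are blue, and Spp1 is the most abundant gene called lower.

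Injury markers of the tubule were lower in finerenone kidneys. Of 19 genes of this list with a symbol, 13 were called lower and none was called higher, and the median log2 fold change was -0.96, against -0.04 over all genes tested and -0.48 over genes with a symbol. Havcr1 encodes KIM-1, a membrane protein that damaged proximal tubule cells display. Its level was 43.4, 94.5, 78.1 and 104 CPM in finerenone libraries 1 to 4 and 348, 754 and 279 CPM in spironolactone libraries 1 to 3. Every spironolactone library was above every finerenone library, as was spironolactone library 4 with 339 CPM. Its log2 fold change was -2.53 ± 0.47 (SE, edgeR adjusted p = 0.0219), the lowest fold change of any gene with a symbol that met the rule for named genes. The call was lost, with adjusted p between 0.0509 and 0.0625, when finerenone library 2, 3 or 4 or spironolactone library 1 was left out.

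Timp1, an inhibitor of matrix metalloproteinases, was at 13.3, 19.2, 11.8 and 19.7 CPM in finerenone and at 54.0, 63.7 and 42.3 CPM in spironolactone libraries. These groups did not overlap, and the log2 fold change was -1.74 ± 0.20 (SE, edgeR adjusted p = 0.000476). Spp1 encodes osteopontin, a secreted phosphoprotein of injured tubules. It was at 1618, 3511, 1761 and 3863 CPM in finerenone and at 8324, 13810 and 5901 CPM in spironolactone libraries. The groups were apart, and within finerenone, libraries 2 and 4 (first code number 3) were well above libraries 1 and 3 (first code number 2). The log2 fold change of Spp1 was -1.80 ± 0.45 (SE, edgeR adjusted p = 0.0467). That call was lost in 6 of the 7 fits without 1 library, all but the fit without finerenone library 4, with adjusted p between 0.0518 and 0.139. Vim, Krt8 and Cd24, an intermediate filament of mesenchymal and dedifferentiated cells, a keratin of simple epithelia and a surface glycoprotein, fell by 0.96, 1.00 and 0.86 on the log2 scale. Tnc, Clu, Krt18, Cd44, Anxa1, S100a6 and Ccn1 were the other members called lower. Of these, Clu lost the call without finerenone library 1 or 4 or spironolactone library 1 or 2 (edgeR adjusted p = 0.063, 0.0525, 0.0771 and 0.0613), and Krt18 without spironolactone library 2 (0.0587). Ccn1 lost it without spironolactone library 1 or 2 (edgeR adjusted p = 0.0735 and 0.055) and with library 4 added (0.052). Lcn2, which encodes NGAL, was at 29.1 ± 14.3 CPM (SD, n = 4) in the finerenone and 99.0 ± 52.8 CPM (SD, n = 3) in the spironolactone libraries, and it did not pass (log2 fold change -1.77 ± 0.52 SE, edgeR adjusted p = 0.0831). Vcam1, Il34, Pdgfb, Cdkn1a and Itgb6 were not called, with log2 fold changes between -0.45 and -0.22. In sums by first code number the calls of Havcr1, Spp1, Clu, Krt18, Ccn1 and Anxa1 were lost (edgeR adjusted p = 0.0925, 0.194, 0.139, 0.0524, 0.111 and 0.0531). Without spironolactone library 2, 9 of the 19 were called lower, and with library 4 added 13 were.

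**Figure D2:**
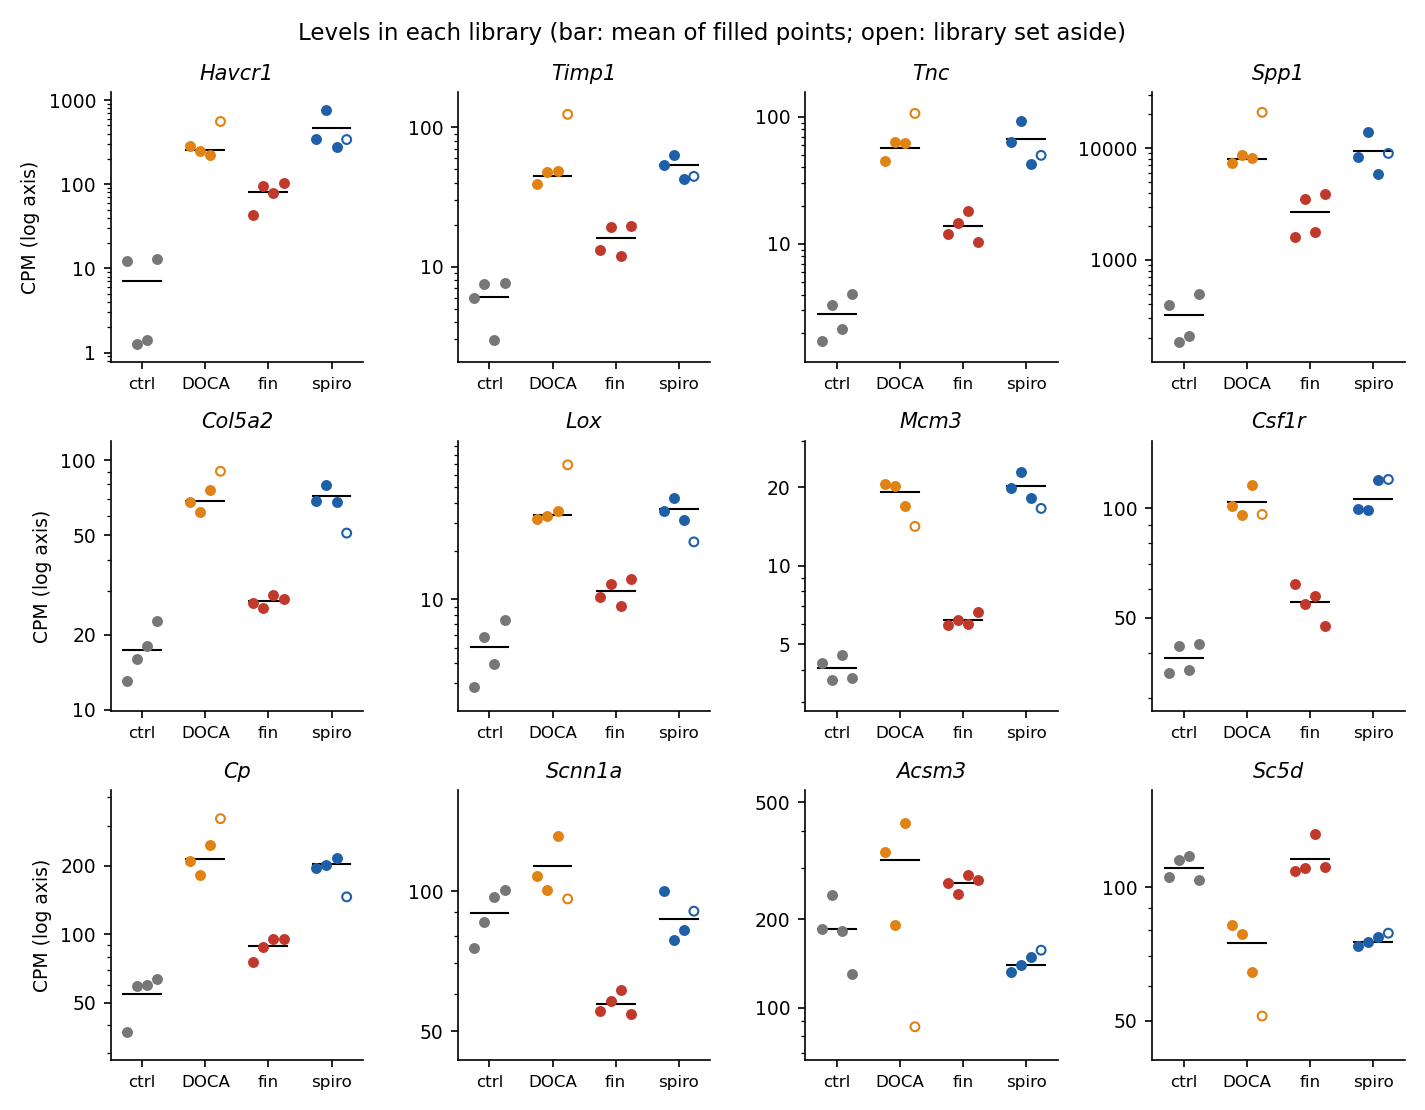
CPM in each library is plotted on a log axis for 12 genes, by group, with bars at the mean of the filled points. Open points are DOCA library 4 and spironolactone library 4. For Timp1, Col5a2, Mcm3 and Cp every finerenone point lies below every spironolactone point, and for Sc5d every finerenone point lies above.

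Collagens and other matrix genes formed the list with the most calls. Of 29 with a symbol, 24 were lower in finerenone, none was higher, and the median log2 fold change was -0.99. Col5a2, a chain of the fibrillar collagen V, was at 26.8, 25.6, 28.9 and 27.7 CPM in finerenone and at 68.3, 79.5 and 67.7 CPM in spironolactone libraries. The finerenone libraries lay within a narrow range, and the lowest spironolactone library was well above them. Its log2 fold change was -1.40 ± 0.11 (SE) at an edgeR adjusted p of 0.00012. Lox, the enzyme that crosslinks collagen and elastin, was at 10.4, 12.5, 9.16 and 13.3 CPM against 35.3, 42.8 and 31.3 CPM. The groups did not overlap, and the log2 fold change of Lox was -1.69 ± 0.17 (SE, edgeR adjusted p = 0.000177). Plod2, a lysyl hydroxylase that prepares collagen for crosslinking, differed by -1.35 ± 0.13 (SE, edgeR adjusted p = 0.000178) and Col15a1, a basement membrane collagen, by -1.09 ± 0.11 (SE, edgeR adjusted p = 0.000206). The main fibrillar chains Col1a1 and Col3a1 fell by 1.00 and 1.14 on the log2 scale, Fn1 (fibronectin) by 1.26 and the basement membrane chains Col4a1 and Col4a2 by 0.83 and 1.01. Elastin (Eln) was at 39.5 ± 10.2 CPM (SD, n = 4) in the finerenone and 33.4 ± 2.68 CPM (SD, n = 3) in the spironolactone libraries and was not called (log2 fold change 0.24 ± 0.17 SE, edgeR adjusted p = 0.38). Sparc, Bgn, Timp2 and Serpinh1 had adjusted p-values under 0.05 in the edgeR test but changes smaller than 0.5 on the log2 scale. Without spironolactone library 2, 22 of the 29 were called lower, and with library 4 added 23 were.

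Genes of TGF-beta signaling and of myofibroblasts differed less. Of 15, 6 were lower, none was higher, and the median log2 fold change was -0.54. The log2 fold change of Tgfb1, which encodes the ligand itself, was -0.67 ± 0.17 (SE, edgeR adjusted p = 0.0202). Its call was lost without finerenone library 3 or 4 or any 1 spironolactone library, with adjusted p between 0.0503 and 0.0793. Itgav, an integrin subunit that activates latent TGF-beta, fell by 1.05 on the log2 scale and lost the call without spironolactone library 1 or 2 (edgeR adjusted p = 0.0605 and 0.0574). Tagln, an actin-binding protein of smooth muscle, fell by 0.64 on the log2 scale. Pdgfra and Pdgfrb, receptors of platelet-derived growth factor on fibroblasts and pericytes, fell by 0.54 each. Both lost the call when spironolactone library 4 was added (log2 fold changes -0.43 and -0.49). Pdgfra also lost it without finerenone library 1 or 4 or spironolactone library 3 (-0.46, -0.49 and -0.46). Pdgfrb lost it without finerenone library 1 or 3 or spironolactone library 2 or 3 (-0.44, -0.49, -0.51 and -0.49). In sums by first code number the calls of Tgfb1, Itgav and Pdgfrb were lost (edgeR adjusted p = 0.0678, 0.0773 and 0.0645), and with library 4 in the sums that of Pdgfra was as well (0.0695). Acta2, the smooth muscle actin of myofibroblasts, was at 49.1 ± 26.9 CPM (SD, n = 4) against 60.4 ± 7.05 CPM (SD, n = 3) and was not called, with a 95% interval of the log2 fold change from -1.24 to 0.64. Without spironolactone library 2, 3 of the 15 genes were called lower. In the fit of all 7 libraries, Myl9 had a 95% interval from -0.27 to 0.24, inside 0.5 in both directions.

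Cell cycle genes had the lowest list median, -1.18. Of 14 with a symbol, 10 were lower in finerenone and none was higher. The 4 named by smallest adjusted p were Mcm3, Mcm6 and Mcm5, subunits of the helicase that opens DNA for replication, and Top2a, the topoisomerase of dividing cells. For these 4, the 250 bases before the transcription start are shown, from RefSeq on GRCr8, 5′ to 3′ on the strand of the gene. Capitals mark matches on either strand to CCAAT or to TTTCCCGC and TTTGGCGC, which are forms of the E2F motif. No base was in 2 matches.
Mcm3: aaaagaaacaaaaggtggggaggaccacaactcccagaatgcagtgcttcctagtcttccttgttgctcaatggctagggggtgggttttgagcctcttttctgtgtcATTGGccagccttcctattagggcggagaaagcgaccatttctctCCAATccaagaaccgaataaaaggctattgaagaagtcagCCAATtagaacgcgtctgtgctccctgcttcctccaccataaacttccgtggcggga
Mcm6: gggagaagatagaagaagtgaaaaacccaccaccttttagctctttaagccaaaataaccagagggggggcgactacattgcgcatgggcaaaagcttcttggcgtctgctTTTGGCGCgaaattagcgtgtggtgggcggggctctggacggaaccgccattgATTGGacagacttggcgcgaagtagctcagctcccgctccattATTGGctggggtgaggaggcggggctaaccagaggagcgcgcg
Mcm5: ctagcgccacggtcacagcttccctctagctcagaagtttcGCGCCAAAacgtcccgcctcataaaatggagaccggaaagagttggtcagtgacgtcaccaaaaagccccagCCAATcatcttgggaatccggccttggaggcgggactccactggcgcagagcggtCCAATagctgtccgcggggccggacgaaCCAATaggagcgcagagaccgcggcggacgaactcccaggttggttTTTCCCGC
Top2a: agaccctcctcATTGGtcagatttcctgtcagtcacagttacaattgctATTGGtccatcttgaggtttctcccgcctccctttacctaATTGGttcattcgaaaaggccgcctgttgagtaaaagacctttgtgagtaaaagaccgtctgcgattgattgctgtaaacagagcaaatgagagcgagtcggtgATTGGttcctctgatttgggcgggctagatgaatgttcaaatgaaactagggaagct

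The windows were chr9:30733747-30733996 on the minus strand for Mcm3, chr13:42404353-42404602 on the minus strand for Mcm6, chr19:13488563-13488812 on the plus strand for Mcm5 and chr10:84473094-84473343 on the minus strand for Top2a. The window of Mcm5 held 2 of the E2F forms, that of Mcm6 held 1, and those of Mcm3 and Top2a held none. CCAAT was found 3 times in Mcm3, 2 times in Mcm6, 3 times in Mcm5 and 4 times in Top2a. Over all 33469 RefSeq promoter windows of the same length, 0.813% held TTTCCCGC, 0.412% held TTTGGCGC, 34% held CCAAT and 9.42% held it at least 2 times. These matches describe letters only.

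Mcm3 was at 5.91, 6.195, 5.98 and 6.66 CPM in finerenone and at 19.8, 22.8 and 18.2 CPM in spironolactone libraries. The finerenone values were close together and far below every spironolactone value, and the log2 fold change was -1.71 ± 0.17 (SE, edgeR adjusted p = 0.000177). Mcm6 was at 9.51, 9.08, 7.89 and 7.87 CPM against 27.9, 33.0 and 19.8 CPM, a log2 fold change of -1.65 ± 0.19 (SE, edgeR adjusted p = 0.000313). Mcm5 and Top2a differed by -1.80 ± 0.27 (SE, edgeR adjusted p = 0.00138) and -1.44 ± 0.22 (SE, edgeR adjusted p = 0.00169). Top2a was at 10.5 CPM in spironolactone library 4, inside the finerenone range of 9.16 to 10.9 CPM, whereas spironolactone libraries 1 to 3 were at 25.4, 38.1 and 18.3 CPM. Mki67, Cdk1, Ccnb1, Cdc20, Mcm2 and Tyms were also lower. Ccnb1 lost the call in 5 of the 7 fits without 1 library, all but those without finerenone library 3 and spironolactone library 3, with adjusted p between 0.065 and 0.15. Cdc20 lost it in 5 of the 7, all but those without finerenone library 2 and spironolactone library 3, with adjusted p between 0.0525 and 0.196. In sums by first code number Ccnb1, Cdc20, Cdk1, Mcm2 and Mki67 lost the call (edgeR adjusted p = 0.118, 0.145, 0.0553, 0.0651 and 0.123), and with library 4 in the sums Top2a did (0.143). Aurka, Foxm1 and Cdkn1a did not pass the adjusted p, and Pcna, the sliding clamp of DNA polymerase, had an adjusted p of 0.0327 in the edgeR test with a log2 fold change of -0.44. Without spironolactone library 2, 8 of the 14 were called lower, and with library 4 added 9 were.

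Leukocyte genes, complement and antigen presentation were lower in finerenone as well. Of 22 genes of chemokines, adhesion and leukocytes, 15 were lower and none was higher, with a median log2 fold change of -0.70. Csf1r, the receptor that macrophages need for survival, was at 61.8, 54.6, 57.4 and 47.4 CPM in finerenone and at 99.4, 98.8 and 119 CPM in spironolactone libraries. The groups did not overlap, and the log2 fold change was -0.94 ± 0.11 (SE, edgeR adjusted p = 0.000432). C1qa, C1qb and C1qc, the chains of C1q that macrophages make, fell by 0.62, 0.88 and 0.69 on the log2 scale. Cxcl10, a chemokine that interferon gamma induces, fell by 1.02, and Ptprc, which encodes the leukocyte antigen CD45, fell by 0.74. C1qa lost the call without finerenone library 3 or spironolactone library 3 (log2 fold changes -0.50 and -0.48), and Ptprc without spironolactone library 2 (edgeR adjusted p = 0.066). Ccl21, a chemokine of lymphatic vessels, was at 60.3 ± 12.9 CPM (SD, n = 4) in the finerenone and 44.3 ± 12.5 CPM (SD, n = 3) in the spironolactone libraries and was not called (edgeR adjusted p = 0.208). In bulk tissue, fewer cells of a type and less RNA per cell cannot be told apart. The summed level of the 22 genes was 1005 to 1246 CPM in finerenone, 1512 to 1649 CPM in spironolactone, 646 to 910 CPM in control and 1451 to 1745 CPM in DOCA libraries 1 to 3. Lyz2 and Cxcl16 had the highest levels in that sum and were not called (log2 fold changes -0.32 and -0.28). Cx3cr1, Adgre1, Tyrobp and Fcer1g were not called either (-0.70, -0.48, -0.30 and -0.30). What share of the other differences moved with leukocyte content was not tested.

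Of 15 acute phase and complement genes, 10 were lower, none was higher, and the median log2 fold change was -0.85. Cp encodes ceruloplasmin, a copper-carrying ferroxidase of the acute phase. It was at 75.5, 88.3, 95.9 and 95.7 CPM in finerenone and at 195, 202 and 217 CPM in spironolactone libraries. Every spironolactone library was above every finerenone library, and the log2 fold change was -1.20 ± 0.10 (SE, edgeR adjusted p = 0.00012). Fga, the alpha chain of fibrinogen, fell by 2.23 on the log2 scale, C2, a protease of the classical complement pathway, by 1.17, and Serping1, the inhibitor of that protease cascade, by 0.61. C4b was called lower and C4a was not (edgeR adjusted p = 0.0177 and 0.341), but these near-identical genes share reads and their counts are uncertain. C4b lost the call without finerenone library 1 (edgeR adjusted p = 0.0507). In sums by first code number Fga lost the call without and with library 4 (edgeR adjusted p = 0.0905 and 0.0861), and Serping1 lost it without library 4 (0.0608). C3, the central complement protein, was at 46.5 ± 2.98 CPM (SD, n = 4) against 62.6 ± 21.5 CPM (SD, n = 3) and was not called (edgeR adjusted p = 0.175). Of 16 antigen presentation genes, 10 were lower and none was higher, at a median of -0.68. Tap1, a transporter of peptides for class I molecules, fell by 0.78 on the log2 scale. RT1-Da, a class II chain of the rat whose close relatives share reads with it, fell by 0.67. Psmb10 and Psmb8, subunits of the immunoproteasome, fell by 0.89 and 0.76. Tap1 lost the call in sums with library 4 (edgeR adjusted p = 0.0559). Without spironolactone library 2, 12 of 22, 9 of 15 and 5 of 16 genes of these lists were called lower, and with library 4 added the counts were 16, 10 and 10.

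Some immediate early genes and interferon genes were called lower in finerenone, and none was called higher. Of 12 genes of the AP-1 and immediate early list, 5 were lower at a median of -0.66: Btg2 (-0.74), Klf6 (-0.88), Maff (-0.91), Junb (-0.58) and Dusp1 (-0.51). Junb, a subunit of AP-1, lost the call without finerenone library 3 (log2 fold change -0.50). Dusp1 lost it in 5 of the 7 fits without 1 library, all but those without finerenone library 1 and spironolactone library 2, with adjusted p between 0.0558 and 0.155, and with spironolactone library 4 added (0.238). In sums by first code number Klf6, Junb and Dusp1 lost the call (edgeR adjusted p = 0.0605, 0.0851 and 0.085), and with library 4 in the sums Btg2 did (0.0536). Egr1 was at 11.1 ± 1.71 CPM (SD, n = 4) in the finerenone and 37.6 ± 28.0 CPM (SD, n = 3) in the spironolactone libraries and did not pass (edgeR adjusted p = 0.0643). Of 10 interferon genes, 3 were lower at a median of -0.34: Gbp2 and Igtp, GTPases that interferon induces, and Ifih1, a sensor of double-stranded RNA. Ifih1 lost the call without finerenone library 1 or 4 or spironolactone library 1 or 2 (edgeR adjusted p = 0.0516, 0.0547, 0.084 and 0.0921). Igtp lost it without finerenone library 1 or 3 or spironolactone library 1 or 2 (log2 fold changes -0.49, -0.50, -0.51 and -0.40) and with spironolactone library 4 added (-0.45). Gbp2, Igtp and Ifih1 all lost the call in sums by first code number (edgeR adjusted p = 0.093, 0.139 and 0.108). Without finerenone library 1, spironolactone library 1 or spironolactone library 2, 1 of the 10 interferon genes was called. Without finerenone library 3, 3 of the 12 immediate early genes were called. For 5 of the 10 interferon genes, the whole 95% interval lay between -0.5 and 0.5. Among these were Mx1, an antiviral GTPase (-0.38 to 0.24), and Irf9, a subunit of the interferon-activated factor ISGF3 (-0.32 to 0.35).

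Genes of the collecting duct and targets of the mineralocorticoid receptor bear directly on the drugs, and 7 had a symbol. Of these, 2 were lower and none was higher, at a median of -0.53. Scnn1a, the alpha subunit of the epithelial sodium channel, was at 55.2, 58.1, 61.3 and 54.4 CPM in finerenone and at 100, 78.7 and 82.6 CPM in spironolactone libraries. The groups did not overlap, and the log2 fold change was -0.61 ± 0.11 (SE, edgeR adjusted p = 0.00307). Control libraries were at 89.8 ± 11.4 CPM (SD, n = 4) and DOCA libraries 1 to 3 at 113 ± 16.2 CPM (SD, n = 3), so the finerenone libraries lay below both. Without spironolactone library 1 the log2 fold change was -0.49 and the call was lost. Pik3r1, a regulatory subunit of phosphoinositide 3-kinase, fell by 0.53 on the log2 scale (edgeR adjusted p = 0.0415). It lost the call in every fit without 1 library except the fit without spironolactone library 1, with adjusted p between 0.0535 and 0.164, and in sums by first code number (0.0684). Aqp4, a water channel, was at 13.6 ± 3.92 CPM (SD, n = 4) against 22.2 ± 7.51 CPM (SD, n = 3) and did not pass (edgeR adjusted p = 0.0906). Scnn1b, the beta subunit of the channel, had a 95% interval from -0.04 to 0.39. Hsd11b2, the enzyme that protects the receptor from glucocorticoids, had an interval from -0.13 to 0.49. The sign of the fold change of Scnn1b and Hsd11b2 turned under scaling by library size alone (-0.04 for both) and on log2(TPM + 1) (-0.21 and -0.17). Pik3r3, another regulatory subunit of the kinase, was not called (edgeR adjusted p = 0.163).

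**Figure D3:**
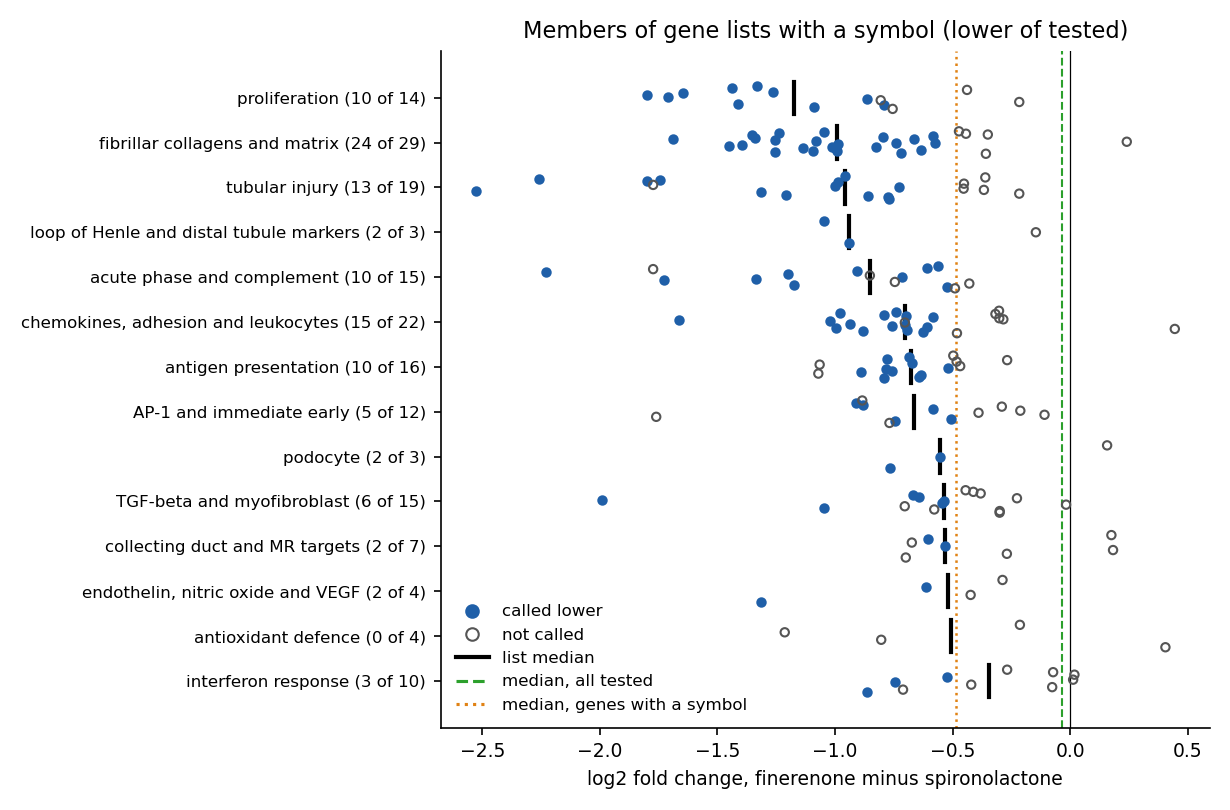
Each point is a gene with a symbol and its log2 fold change, finerenone minus spironolactone, for the 14 lists with at least 3 such genes. Filled points were called lower, open points were not called, black bars are list medians, the dashed line is the median of all genes tested at -0.04 and the dotted line that of all genes with a symbol at -0.48. The medians run from -1.18 for proliferation to -0.34 for interferon genes.

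Other segments and cell types were covered by few genes with a symbol. Of 3 markers of the loop of Henle and distal tubule, 2 were lower at a median of -0.94. Ptger3, a receptor of prostaglandin E2, fell by 0.94 on the log2 scale and Trpv5, the calcium channel of the distal tubule, fell by 1.05. Slc8a1, a sodium-calcium exchanger, was at 58.3, 13.0, 56.2 and 16.1 CPM in finerenone libraries 1 to 4, which splits libraries 1 and 3 (first code number 2) from libraries 2 and 4 (first code number 3), and it was not called (edgeR adjusted p = 0.907). Of 3 podocyte genes, Kirrel1 and Cd2ap, both of the slit diaphragm, fell by 0.55 and 0.77. Kirrel1 lost the call without spironolactone library 3 and with library 4 added (log2 fold changes -0.41 and -0.46). Cd2ap lost it without finerenone library 2 or spironolactone library 1 or 2 (edgeR adjusted p = 0.0886, 0.11 and 0.129). Both lost it in sums by first code number (edgeR adjusted p = 0.0562 and 0.163). Ptpro, a phosphatase of podocytes, had a 95% interval from -0.05 to 0.37, and its sign turned under scaling by library size alone (-0.06) and on log2(TPM + 1) (-0.23). Car15, Cdh5 and Adipoq, used as markers of intercalated cells, endothelium and fat, were not called, with log2 fold changes of -0.12, -0.38 and -0.68 and edgeR adjusted p-values of 0.613, 0.043 and 0.0648.

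Of 4 genes of endothelin, nitric oxide and VEGF signaling, Ednra, an endothelin receptor, and Gucy1b1, a subunit of the nitric oxide receptor, were lower by 1.32 and 0.61 on the log2 scale, at a median of -0.52 for the 4. Ednra lost the call without finerenone library 2 or spironolactone library 2 (edgeR adjusted p = 0.0503 and 0.0726). Gucy1b1 lost it without finerenone library 1 or 4 or spironolactone library 2 (edgeR adjusted p = 0.0569, 0.0577 and 0.124). Both lost it in sums by first code number (edgeR adjusted p = 0.0711 and 0.0773). Gucy1a1 and Nrp1 were not called (log2 fold changes -0.42 and -0.29). None of 4 antioxidant genes was called by the edgeR test, although 2 had an unadjusted p under 0.05, and DESeq2 called 1. Gpx4, which reduces lipid peroxides, was at 499 ± 54.4 CPM (SD, n = 4) in the finerenone and 377 ± 28.3 CPM (SD, n = 3) in the spironolactone libraries, and its log2 fold change of 0.40 (edgeR adjusted p = 0.0276) was under the limit for a call. Hmox1, the enzyme that degrades heme, was at 27.8, 223 and 27.3 CPM in spironolactone libraries 1 to 3, so library 2 alone set the group mean. The median of the 4 antioxidant genes was -0.51 and turned to 0.07 without spironolactone library 2. Asns, the only gene of endoplasmic reticulum stress with a symbol, fell by 0.78 on the log2 scale, and lost the call in 6 of the 7 fits without 1 library, all but the fit without finerenone library 2, with adjusted p between 0.0591 and 0.189, and in sums by first code number (0.127). Pdk4 and Akr1c14, the only members of the fatty acid oxidation and androgen lists with a symbol, were not called (log2 fold changes -0.52 ± 0.44 and 0.41 ± 0.38 SE). No member of the lists for proximal tubule function, the renin-angiotensin system, drug-induced enzymes, the circadian clock, adrenal cortex, red blood cells or mitochondrial transcripts had a symbol, so none of these gave a value.

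Genes higher in finerenone were rarely named, since 629 of the 644 carried no symbol. Acsm3, a medium-chain acyl-CoA synthetase of mitochondria, was at 266, 244, 284 and 273 CPM in finerenone and at 132, 140 and 148 CPM in spironolactone libraries. The groups did not overlap, and the log2 fold change was 0.93 ± 0.10 (SE, edgeR adjusted p = 0.000206). Its level also varied widely without either drug, at 340, 191 and 424 CPM in DOCA libraries 1 to 3. The call was lost in a fit of all 16 libraries (edgeR adjusted p = 0.0946). Eri2, an exonuclease, overlaps Acsm3 in RefSeq and differed by 0.91 ± 0.11 (SE, edgeR adjusted p = 0.000534), so reads of the pair may not be separate. The call of Eri2 was lost in a fit of 14 libraries of the 4 groups and in that of all 16 (edgeR adjusted p = 0.0586 and 0.114). Sc5d, an enzyme of cholesterol synthesis, was at 109, 111, 132 and 111 CPM in finerenone and at 73.7, 75.3 and 77.3 CPM in spironolactone libraries. These groups were apart, and the log2 fold change of Sc5d was 0.62 ± 0.10 (SE, edgeR adjusted p = 0.00188). Nr2f6, an orphan nuclear receptor, Arhgef15, an exchange factor of endothelial cells, and Akap8l, an anchoring protein of the nucleus, rose by 0.79, 0.84 and 0.79 on the log2 scale. Akap8l lost the call without spironolactone library 1 (edgeR adjusted p = 0.0748). Prxl2a, Ocel1, Bcl7b and Eif1b rose by 0.74, 0.71, 0.64 and 0.62. Akap8l, Prxl2a, Ocel1 and Bcl7b lost the call in sums by first code number (edgeR adjusted p = 0.0587, 0.0623, 0.0642 and 0.0514), and with library 4 in the sums Arhgef15 did (0.0539). All 10 kept a positive fold change in every alternative, but 5 of the 10 lost the call under scaling by library size alone and 9 lost it on log2(TPM + 1).

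Outside the lists, Slc34a2, a phosphate transporter, was at 46.8, 70.0, 39.1 and 77.7 CPM in finerenone and 186, 293 and 183 CPM in spironolactone libraries, without overlap, a log2 fold change of -1.92 ± 0.29 (SE, edgeR adjusted p = 0.00701). Ephb6, an Eph receptor that lacks kinase activity, fell by 1.89. Among IDs with no symbol that had a mean log2 CPM from 1 upward and groups without overlap, the largest rise was that of ENSRNOG00000050864, at 27.1, 36.9, 16.5 and 32.3 CPM in finerenone and at 0, 1.78 and 0 CPM in spironolactone libraries. Spironolactone library 4 was at 31.6 CPM, inside the finerenone range. In control libraries 1 to 4 the gene was at 33.1, 0.317, 1.28 and 32.1 CPM, so it also differed within a group. ENSRNOG00000052810 followed, at 3.79 to 19.7 CPM in finerenone and at 0.627, 0 and 0.241 CPM in spironolactone libraries 1 to 3. The largest falls under the same conditions were those of ENSRNOG00000025074 and ENSRNOG00000007092, by 3.00 and 2.64 on the log2 scale.

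Levels in control and DOCA libraries, which take no part in the test, put the drug difference on a scale. Of the 881 genes lower in finerenone, 870 (98.8%) had a higher mean in DOCA libraries 1 to 3 than in control libraries. Of the 644 genes higher in finerenone, 631 (98.0%) had a lower mean in DOCA. Over all genes tested, 52.1% had a higher mean in DOCA. With DOCA library 4 included the counts were 865 and 629. Across genes, the log2 difference between finerenone and spironolactone means and that between DOCA and control means had a Pearson correlation of -0.70 over the 14115 genes tested. Genes are not independent replicates, and the correlation is given without a test. Mean levels followed the order control, finerenone and then DOCA or spironolactone in 679 of the lower genes (77.1%) and the mirrored order in 440 of the higher genes (68.3%). Spironolactone had the highest mean of the 4 groups in 564 called genes and the lowest in 281. Finerenone had the highest in 198 and the lowest in 201. These orders and ranks were counted only in called genes, where the call already sets which drug has the lower mean. They were not counted over all genes tested, so they have no background share. Timp1 followed the first order: 6.01 ± 2.15 CPM (SD, n = 4) in control, 15.98 ± 4.02 CPM (SD, n = 4) in finerenone, 45.1 ± 5.34 CPM (SD, n = 3) in DOCA and 53.4 ± 10.7 CPM (SD, n = 3) in the spironolactone libraries. Means of the DOCA and control groups were within 0.25 on the log2 scale for 59 called genes, 20 higher and 39 lower in finerenone. How many of all genes tested lay within that limit was not counted, so the 59 have no share to be read against. None of the 59 had a symbol, but symbols came mostly from genes listed as changed between DOCA and control rats.

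**Figure D4:**
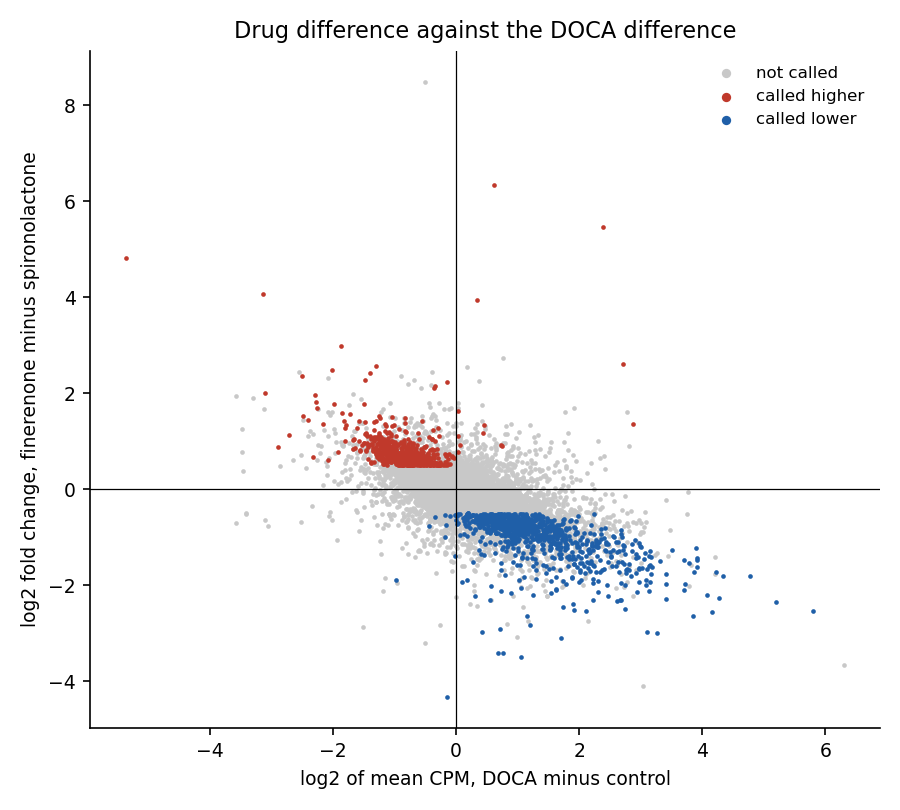
The log2 difference of mean CPM between DOCA libraries 1 to 3 and control libraries is on the x axis and the log2 fold change, finerenone minus spironolactone, on the y axis, for 14115 genes. Of the 881 genes called lower, 870 lie to the right of 0, and of the 644 called higher, 631 lie to the left.

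For many genes the data bound the difference. The whole 95% interval of the log2 fold change lay between -0.5 and 0.5 for 4171 genes (29.6%), of which 152 had a symbol. The other genes that were not called may differ by more than that and could not be resolved with these libraries.

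The number of calls depended on which spironolactone libraries were used. It was 1691 with spironolactone library 4 added, of which 1357 were among the 1525. It was 912 without spironolactone library 2 and 955 without spironolactone library 1. Summing libraries that share a first code number, which leaves 2 sums in each group, gave 550 calls. Within the libraries whose second code number is 1, 2 against 2, 542 genes were called, and within those whose second number is 2, with spironolactone library 4 included, 559 were.

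**Figure D5:**
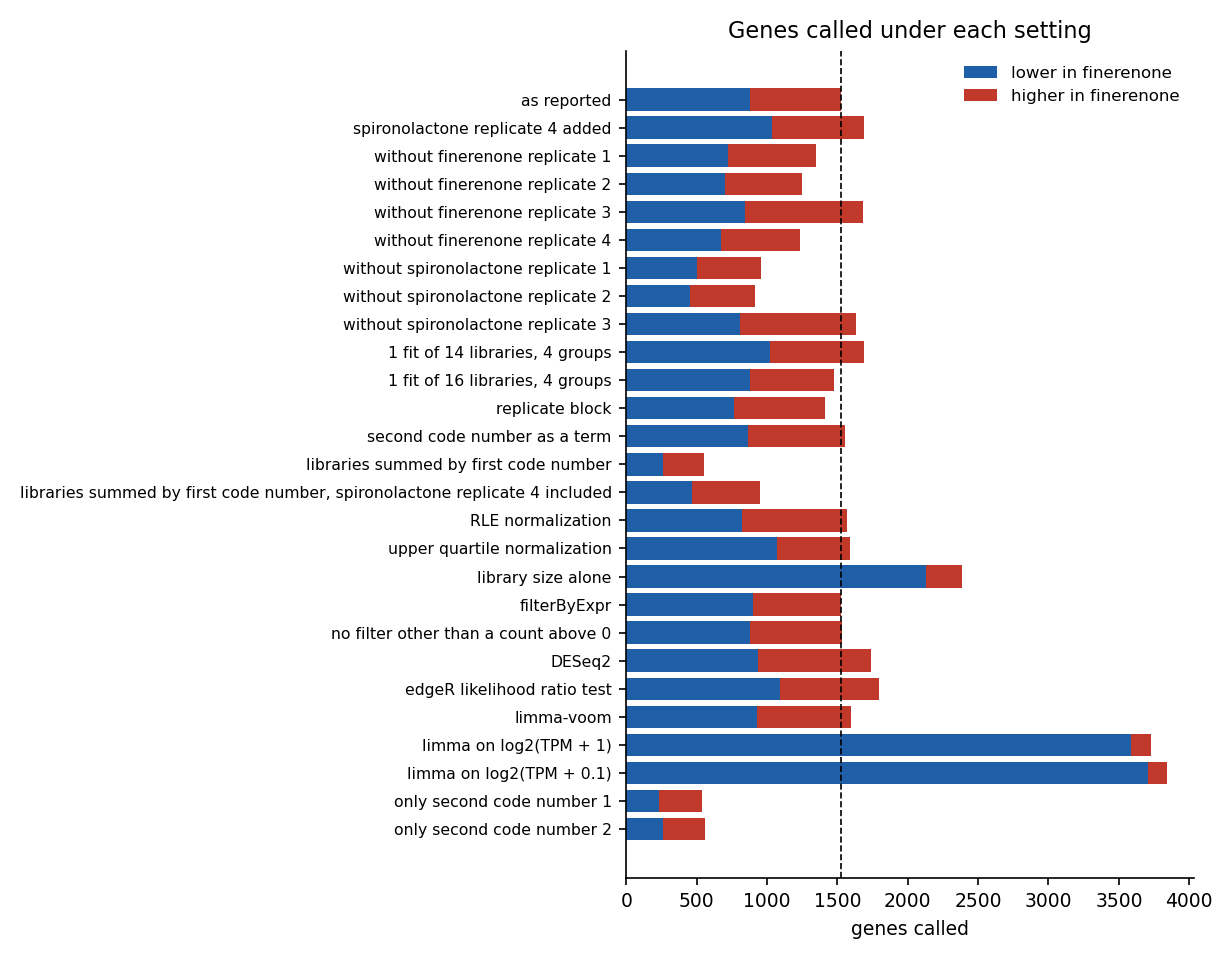
Bars give the number of genes called, lower in finerenone in blue and higher in red, with all 7 libraries as reported and under each alternative choice of libraries, scaling, filter or tool. The dashed line marks 1525, and counts run from 542 with only second code number 1 to 3844 on log2(TPM + 0.1).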

How the data were processed

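RNA was prepared by the authors from whole kidney with RNeasy columns, and libraries were made with a NEBNext Ultra kit that the methods describe as strand-specific. The strand setting of the counting is not given in the sources used here. The authors trimmed reads with Trim Galore 0.4.5, aligned them with STAR 2.7.3a to the rn6 genome and quantified genes with RSEM. They deposited estimated counts and TPM for each library, and 1 DOCA and 1 spironolactone library had been set aside as outliers. Of the deposited estimated counts, 3.14% were not whole and were rounded here.

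The filter kept genes that exceeded a count of 4 in 3 or more of the 7 libraries, and these were tested in R 4.3.3 with edgeR 4.0.16 (TMM scaling, robust quasi-likelihood F test, Benjamini-Hochberg adjustment). The 95% interval was computed from the fold change, F and its degrees of freedom. Alternatives used limma 3.58.1 and DESeq2 1.42.0, and for the deposited TPM values log2 with a pseudocount of 1 or 0.1. A count of 3, the limit that a count of 0 allows, was 0.334 to 0.454 CPM in these libraries, for counting error only. On simulated counts for 14102 genes of this comparison, the test recovered 154 of 192 changed genes and made 14 false calls. The changes put in were at least 1 on the log2 scale, drawn alike in both directions. The 1525 genes called in the data had a median of 0.78, so recovery of such smaller or more numerous changes was not measured.

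Nearly all symbols came from a supplementary table of the study, used for names and not for values. An ID took the symbol whose TPM values matched its own at 2 decimals in every group that the table holds. Libraries within a group could be in any order, and 1996 of 1997 symbols had exactly 1 such ID. The table is cut off at its lower end. Figure values for 14 libraries, matched in the same way, gave 6 symbols, 3 of them also in the table. Genes named were those called, with a mean log2 CPM from 1 upward and groups without overlap, among the 10 largest and 10 smallest fold changes, up to 4 members of each list by adjusted p, and the most abundant marker of each other cell type. For IDs with no symbol, 2 in each direction were named. Some genes that this rule names are not reported here. The comparison and the lists were chosen with earlier results of these data known. Columns with the authors' own fold changes and p-values were not used.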

Additional observations from a re-analysis of the deposited data

Results flagged for a closer look

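In sets of 4 libraries of one group, a value was singled out when its gap to the nearest library, divided by the range of the group, was above the 95% critical value of Dixon's ratio. This singled out 4 of 54 sets, where chance gives about 1 in 20, or 2.7. Havcr1 was at 754.1 CPM in spironolactone library 2, and the next library was at 348.1 CPM. Ocel1 was at 23.21 CPM in spironolactone library 3, with the next at 19.61 CPM. Sc5d was at 132 CPM in finerenone library 3, with the next at 111.3 CPM. The total count of spironolactone library 4, the library set aside, was 10932887, with the next at 7997781. The 54 sets did not take in every gene named above, so this share does not describe all of them. Hmox1 and Acta2 were not among the 54 sets, so the count of 4 leaves them out. Hmox1 was at 222.8 CPM in spironolactone library 2, with the next at 31.33 CPM and the lowest at 27.3 CPM. Acta2 was at 89.44 CPM in finerenone library 1, with the next at 37.03 CPM and the lowest at 34.74 CPM. Both gaps cover most of the range of their group, and the rule would have singled out both values.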

How the results depend on the processing

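With all 7 libraries, 1525 genes were called, 644 higher and 881 lower, 4171 intervals lay within 0.5, and 105 list members were called. Leaving out 1 library gave 912 to 1685 calls, 452 to 841 higher and 453 to 844 lower, 3066 to 3839 intervals and 78 to 101 members. The lowest counts came without spironolactone library 2 (912) and library 1 (955, 503 of them lower). Summing by first code number gave 550, 288 higher and 262 lower, and 63 members. With spironolactone library 4 in the sums it gave 949, 466 of them lower. Library size alone gave 2383, 255 higher and 2128 lower. On log2(TPM + 1) there were 3728, 142 higher and 3586 lower, and 2705 intervals. On log2(TPM + 0.1) there were 3844, 139 higher and 3705 lower, 2050 intervals and 158 members. Adjusted p alone gave 1127 higher, and a limit of 1 on the log2 scale gave 428, 99 higher and 329 lower, and 39 members. Subsets by second code number were chosen after seeing the data: number 1 gave 542, 312 higher and 230 lower, 2507 intervals and 49 members, and number 2 gave 559, 301 higher and 258 lower, 1853 intervals and 48 members. The cause was not tested, beyond the fewer libraries in the subsets, sums and omissions.

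The replicate number as a block (replicate block) gave 1414 calls, 1202 of them shared. Deviations of libraries with the same number correlated at 0.146, 0.121 and -0.001, and those of libraries with different numbers at -0.187 to 0.085. The values of 0.146 and 0.121 were thus the highest, and whether the numbers pair the libraries was not tested.

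Of the 1525 called genes, 1524 kept their sign on either TPM scale and 1523 with second number 2. Among the 84 genes examined singly, signs turned only for genes that were not called. Without 1 library, Slc8a1 ranged from -0.48 to 0.13 and Hmox1 from -1.65 to 0.54. Slc8a1 was 0.13 without finerenone library 2, 0.09 without finerenone library 4, 0.09 without spironolactone library 3 and 0.10 with second number 2. Hmox1 was 0.54 without spironolactone library 2, and Pdk4 0.40 with second number 2. Under library size alone, log2(TPM + 1) and log2(TPM + 0.1), Ptpro was -0.0642, -0.23 and -0.24, Scnn1b -0.0448, -0.21 and -0.22, and Hsd11b2 -0.0355, -0.17 and -0.17. Hsd11b2 was -0.0056 with second number 2. Of 61 called genes named by the rule or examined with them, 14 were called in every alternative. At 7068949 to 8056935 counts a library, a count of 3 was 0.334 to 0.454 CPM, and levels near that could not be resolved.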
